A study of Mus musculus with 18 samples.

Results

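Kidneys were compared after 1 week of *Lin28A* overexpression (OE), the earliest of the time points sequenced, across every gene with enough reads. The 3 OE mice carried Lox-stop-Lox-TetOn-*Lin28A* together with Six2Cre, and the 3 control mice carried Lox-stop-Lox-TetOn-*Lin28A* with no Cre. All 6 had doxycycline (Dox) in their water at 1 g/L for 1 week, so an effect of Dox alone is shared by both groups. Six2Cre acts in the cap mesenchyme and so marks the epithelium of the nephron from podocyte to distal tubule, but not the collecting duct, vessels or stroma. The RNA came from kidney tissue, the labels give no age or sex, and no control carried Six2Cre without the transgene. These 6 libraries belong to a series of 18 in 6 groups of 3, at 1, 2 and 5 weeks of Dox. Of 49585 gene rows in the table, 16984 had a mean above 10 normalized reads over the 18 libraries and were tested. A normalized read is a read divided by the library's size factor.

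Lin28A is an RNA-binding protein of embryonic cells. It binds the loop of *let-7* precursor RNAs and blocks their maturation, and it also binds many mRNAs directly. *Let-7* microRNAs pair through their seed with sites in the 3′ untranslated regions (3′ UTRs) of growth genes such as *Hmga2* and the *Igf2bp* family, and lower their mRNA and protein. The adult nephron normally has abundant mature *let-7* and little Lin28A.

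The libraries held 21176911 to 26578917 reads. Counting error therefore bounds the precision at low read numbers. OE replicate 1 was the only 1-week library with *Xist* above 100 normalized reads (6077, with *Ddx3y* at 3.42). A difference linked to this and one linked to OE cannot be told apart within that library, so counts are also given without it. The defining kidney markers were present in all 6 libraries: *Umod* lay between 37218 and 80304, *Slc34a1* between 20360.4 and 118907, and *Nphs1* between 292 and 899 normalized reads. Nothing in the labels says how the 3 mice of a group were related, so the tests measure the spread between these kidneys.

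The transgene was expressed in every OE kidney. *Lin28a* had 41737, 68744 and 56496 normalized reads in OE kidneys, against 15.6, 28.4 and 21.3 in control kidneys, and reads of the transgene and the endogenous gene cannot be told apart in counts per gene. Only *Six2* rose by a like amount among the genes tested. *Six2*, a transcription factor of nephron progenitors whose promoter drives the Cre, had 4828, 6607 and 5936 in OE kidneys, against 0, 4.37 and 3.20 in control kidneys. The log2 fold changes were 11.26 (SE 0.29, adjusted p = 3.79e-13) for *Lin28a* and 10.99 (SE 0.58, adjusted p = 6.03e-09) for *Six2*, from limma. In a list of *Six2* and its neighbours on chromosome 17, 10 genes were measured, *Six2* among them. *Six2* was the only one higher, and 4 were lower. Among 21 measured nephron progenitor genes, *Pax8* (0.80) and *Traf1* (1.11) were also higher, *Lhx1* (-1.38), *Meox1* (-1.15) and *Uncx* (-2.26) were among the 4 lower, and *Cited1* measured -0.95 with no call. The call of *Traf1* was lost without control replicate 2 (adjusted p = 0.0655). A difference that comes with the Six2Cre construct and one that comes with Lin28A cannot be told apart for *Six2*.

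After 1 week 1394 genes were higher and 852 lower in OE than in control kidneys by the criteria used for differentially expressed genes (DEGs), an adjusted p under 0.05 and a log2 fold change above 1 or below -1. These were 8.21% and 5.02% of all genes tested. With no limit on the fold change, 3180 genes (18.7%) were higher and 2648 (15.6%) lower. A list with shares near these shows nothing particular to the list. For the nephron progenitor, small RNA processing, fibroblast and pericyte, podocyte, ER chaperone, EGF receptor, and IGF, PI3K, AKT and mTOR lists both shares lay within 10 percentage points of them. All gene lists were written with earlier results of these data known, so their counts are descriptions and not independent evidence. The OE and control libraries did not overlap for 25.4% of genes in the higher direction and 24.1% in the lower direction. The quartiles of all log2 fold changes were -0.41 and 0.39 around a median of -0.02, with a median standard error (SE) of 0.21. Without OE replicate 1, 1410 genes were higher and 863 lower, and 1281 and 714 of the original DEGs were kept.

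The genes that rose and those that fell differed in their normalized reads, which are not corrected for gene length. Higher DEGs had a median of 60.0 normalized reads in controls and a median log2 fold change of 1.74, and 210 of them had one above 3. Lower DEGs had a control median of 785 and a median log2 fold change of -1.39, and 23 fell beyond -3. Of 322 genes above 10000 normalized reads in controls, 76 were lower DEGs and 1 was a higher DEG, the secreted phosphoprotein gene *Spp1*. Picking genes by a high control level tilts these counts towards lower DEGs. *Spp1* encodes osteopontin and had 241911, 251454 and 198766 in OE kidneys, against 63471, 42134 and 36852 in control kidneys. Of 700 genes under 10 in controls 306 were higher DEGs, but genes this low passed the filter through other libraries and so had to be higher there. The lower DEGs held 6.23, 5.35 and 4.40% of all normalized reads in OE kidneys and 11.9, 12.5 and 12.9% in control kidneys. The higher DEGs held 6.07, 7.16 and 6.91% in OE kidneys and 1.83, 1.65 and 1.62% in control kidneys. Both sets were picked by their direction in these same 6 libraries, so the direction of these shares was fixed in advance.

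**Figure D1:**
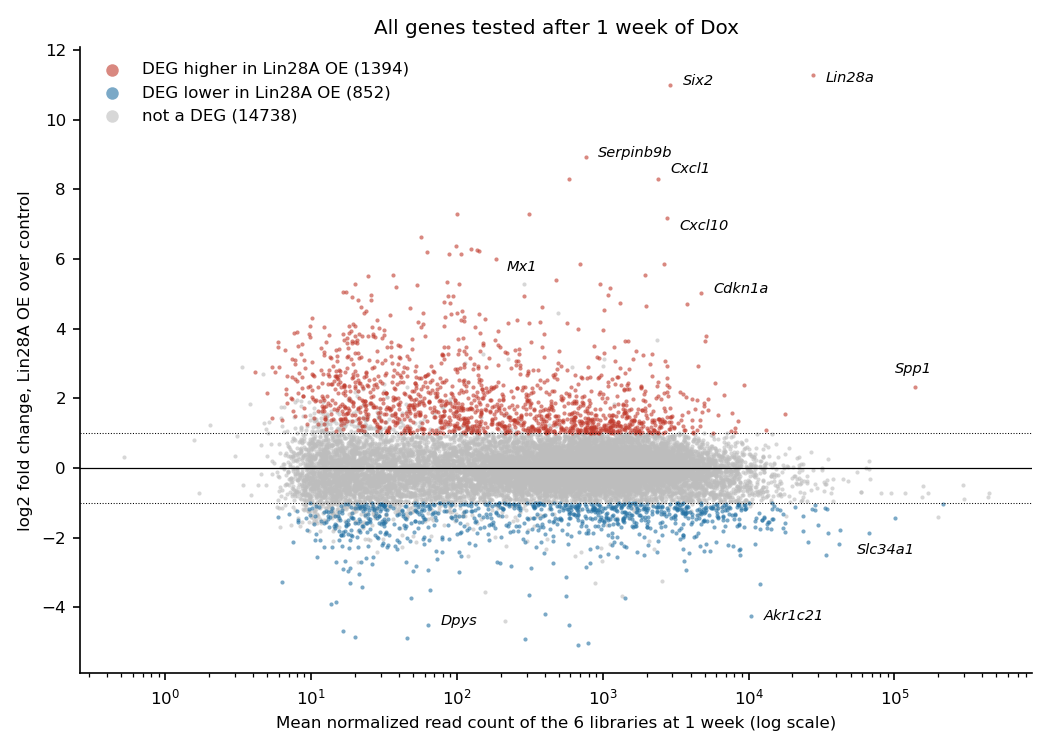
Log2 fold change of OE over control kidneys at 1 week (vertical axis) against the mean of the 6 libraries in normalized reads (horizontal axis, log scale), with 1 point a gene. Red points are the 1394 DEGs higher in OE, blue points the 852 lower, and grey points the 14738 other genes tested, with dotted lines at 1 and -1. *Lin28a* and *Six2* lie above all other genes at 11.26 and 10.99, and the points at the far right include more blue than red.

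The 3 largest rises named here after those of *Lin28a* and *Six2* are given in full. *Serpinb9b*, an intracellular inhibitor of serine proteases, had 1247, 1982 and 1349 normalized reads in OE kidneys, against 1.11, 2.19 and 3.20 in control kidneys. *Cxcl1*, a chemokine that draws neutrophils, had 5049.6, 5451 and 3810.4 in OE kidneys, against 19, 21.9 and 6.39 in control kidneys. *Gpnmb*, a membrane glycoprotein of activated macrophages and injured cells, had 671, 1653 and 1176 in OE kidneys, against 2.23, 2.19 and 3.20 in control kidneys. Each was close to absent from the controls and abundant in each OE kidney. Their log2 fold changes were 8.94, 8.30 and 8.28, on a scale that understates the change of genes this low in controls. The other named genes with rises of this size were *Cxcl5*, *Cxcl10*, *Cxcl2*, *Ccl7*, *Csf3* (granulocyte colony-stimulating factor), *Apol9a*, *Mylk2*, *Il1f6* and *Il1f9*, with log2 fold changes between 6.14 and 7.30. *Ccl20*, which attracts cells bearing CCR6, had 209.7, 186 and 200.01 in OE kidneys, against 1.11, 0 and 0 in control kidneys, and with 1 read over the controls no fold is given.

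Enzymes and transporters of the proximal tubule were among the genes with large falls. *Akr1c21*, a hydroxysteroid dehydrogenase, had 1003, 1829 and 566 normalized reads in OE kidneys, against 22316, 13709.8 and 23303 in control kidneys. *Dpys*, the dihydropyrimidinase of pyrimidine breakdown, had 7.98, 2.86 and 3.43 in OE kidneys, against 93.6, 145 and 128 in control kidneys. Every OE kidney lay far below every control for both. Their log2 fold changes were -4.25 (SE 0.62, adjusted p = 8.61e-05) and -4.50 (SE 0.57, adjusted p = 2.57e-05). *Cyp2j13* (-5.08), the organic anion transporter family members *Slc22a28* (-5.01), *Slc22a22* (-3.73) and *Slc22a30* (-3.67), the N-acetyltransferase family members *Nat8f6* (-4.20) and *Nat8f5* (-3.49), *Ido2* (-3.72) and *Dnase1* (-3.33) fell by similar amounts. The calls of *Cyp2j13* and *Slc22a22* were each lost without 5 of the 6 libraries in turn (adjusted p up to 0.1 and 0.0798), and that of *Slc22a30* without OE replicate 3 (adjusted p = 0.0590). Near-identical members of such families can share reads, and so can the serpins, Oas, Gbp and alpha-globin genes below, which makes the split between members uncertain.

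Target genes of *let-7* were examined first among the known functions of Lin28A. The 9 mature *let-7* names in the RefSeq table of GRCm38.p6 come from 11 genes and share 1 seed, bases 2 to 8, shown in capitals in 4 of them to show what a target site must pair with:
mmu-let-7a-5p: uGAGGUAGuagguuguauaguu
mmu-let-7d-5p: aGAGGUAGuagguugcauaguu
mmu-let-7e-5p: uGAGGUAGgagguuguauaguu
mmu-miR-98-5p: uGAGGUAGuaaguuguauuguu

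Poly(A) libraries do not measure these small RNAs. An 8-base site pairs with the seed and has an A opposite the first base of the microRNA. Sites in the 3′ UTRs of 4 list genes are shown 5′ to 3′ on the transcript strand, read from GRCm38 with the site in capitals, because these genes carry the values that follow:
*Igf2bp2*, chr16:22059467-22059496, minus strand: aacacacaaataaaagCTACCTCAggtgtt
*Igf2bp1*, chr11:95961772-95961801, minus strand: tgctgtgcgaagtaaaCTACCTCAaggtgt
*Nr6a1*, chr2:38727443-38727472, minus strand: atgttgacaaagacaaCTACCTCAatggaa
*Hmga2*, chr10:120364218-120364247, minus strand: cgccgacattcaatttCTACCTCAgcatca

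Of 32 measured *let-7* target genes 19 were higher and 1 was lower, with a median log2 fold change of 0.63 against -0.02 over all genes tested. Without OE replicate 1, 18 were higher. *Igf2bp2*, an mRNA-binding protein of fetal growth, had 1615, 2178 and 1779 normalized reads in OE kidneys, against 184, 195 and 179 in control kidneys. *Nr6a1*, an orphan nuclear receptor of early embryos, had 640.5, 835 and 608 in OE kidneys, against 165, 219 and 109 in control kidneys. *Hmga1*, an architectural chromatin protein, had 607, 700.0 and 921 in OE kidneys, against 159, 253 and 203 in control kidneys. The groups were apart for all 3, and the log2 fold changes were 3.30 (SE 0.16, adjusted p = 3.63e-09), 2.12 (SE 0.30, adjusted p = 6.29e-05) and 1.85 (SE 0.22, adjusted p = 1.28e-05). *Arid3b*, an AT-rich DNA-binding protein, measured 1.96. *Hmga2*, the classic *let-7* target, was low throughout, with 33.0, 41.0 and 45.5 in OE kidneys, against 14.5, 19.7 and 16 in control kidneys. Its call (1.2 (SE 0.42, adjusted p = 0.0367)) was lost without OE replicate 2 or 3 and without each control in turn, with adjusted p up to 0.109, and that of *Igf2bp1* (1.06 (SE 0.30, adjusted p = 0.0117)) was lost without OE replicate 3 (adjusted p = 0.0716). *Ccnd1*, cyclin D1 of the G1 phase, was the only member lower, with 3307, 2379.5 and 2714 in OE kidneys, against 4828, 7449 and 8069 in control kidneys and a log2 fold change of -1.25 (SE 0.29, adjusted p = 0.00336).

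Members of the list with an 8-base site were compared with those without. Of 15 with a site 10 were higher, with a median of 0.78, and of 17 without one 9 were higher and 1 lower, with a median of 0.37. The same split over the 14592 tested genes with an annotated 3′ UTR was made after the data were seen. Genes with 2 or more sites (28) had a median log2 fold change of 0.47 and 46.4% were higher, and those with 1 site (508) had 0.14 and 27.8%. Genes with no site (14056) had 0.01 and 20.4%. *Lin28a* is among the first, and without it the median of the other 27 was 0.30. The 3′ UTRs also differed in length, with medians of 3592.5, 2374.5 and 1110 bases over the same 3 groups. Within each of 4 bins of UTR length the genes with a site had the higher median. It was 0.17 against -0.11 in the shortest bin, where 22 genes had a site, and 0.13 against 0.08 in the longest. Lengths still differed within bins, with medians of 399 against 257 bases in the shortest and 3804 against 3276 in the longest.

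**Figure D2:**
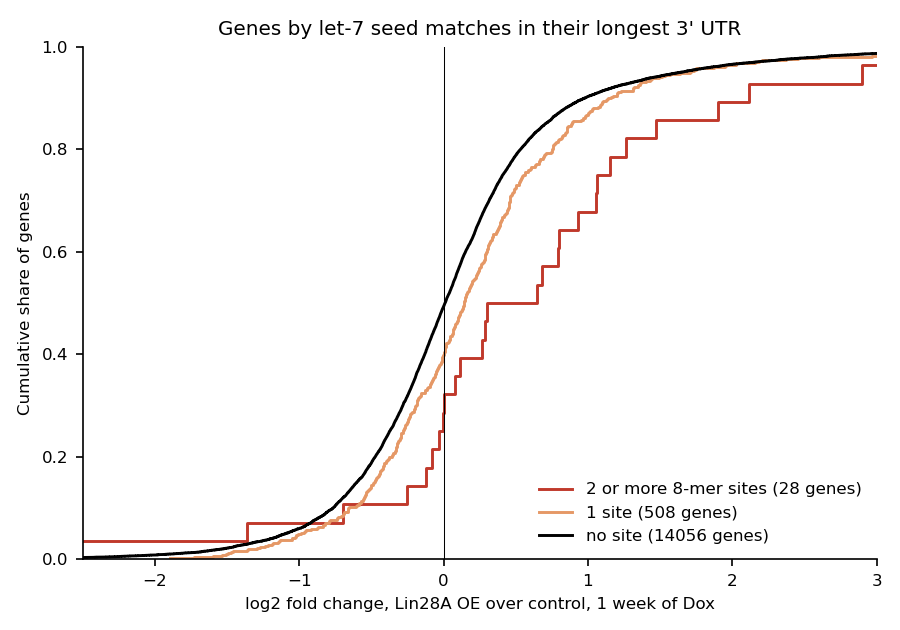
Cumulative share of genes (vertical axis) against the log2 fold change of OE over control at 1 week (horizontal axis), for genes with 2 or more, 1 and no 8-base *let-7* seed matches in their longest 3′ UTR (28, 508 and 14056 genes). The curve for 2 or more sites lies furthest to the right, with medians of 0.47, 0.14 and 0.01.

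Fetal and imprinted genes moved in part. *H19*, an imprinted non-coding RNA of fetal tissue, had 2695, 1853 and 3039 normalized reads in OE kidneys, against 66.9, 115 and 101 in control kidneys. *Igf2*, the neighbouring fetal growth factor, had 939, 638 and 1040.4 in OE kidneys, against 98.1, 136 and 88.4 in control kidneys. Both were far above every control (4.74 (SE 0.77, adjusted p = 2.11e-04) and 3.0 (SE 0.34, adjusted p = 8.20e-06)). Of 20 imprinted and fetal growth genes 8 were higher, alpha-fetoprotein (*Afp*, 3.26) and *Mirg* (4.09) among them, and *Phlda2* (-1.04) and *Slc22a18* (-1.53) were lower. Genes of small RNA processing were called about as often as all genes, with 3 of 13 higher and 2 lower against 18.7% and 15.6%. *Dgcr8* (1.01), which pairs with Drosha in primary microRNA cleavage, and *Zcchc11* (0.75), a terminal uridylyltransferase of *let-7* precursors, were among those higher, and *Dis3l2* (-0.59), an exonuclease of uridylated RNA, and *Prkra* (-0.49) were lower. Without OE replicate 3 only *Dis3l2* was lower.

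All 33 listed interferon response genes were higher, every one a DEG, with a median log2 fold change of 2.91 and a range of 1.14 to 6.0. The list was written with earlier results of these data known. Interferons signal through STAT proteins and interferon regulatory factors (IRFs), which bind the promoters of antiviral genes. *Ifit1*, which binds foreign RNA caps, had 6036, 10336 and 5658 normalized reads in OE kidneys, against 346, 259 and 222 in control kidneys. *Mx1*, an antiviral GTPase, had 327, 467 and 299 in OE kidneys, against 8.92, 1.09 and 7.46 in control kidneys. *Oas3*, a 2′-5′-oligoadenylate synthetase that senses double-stranded RNA, had 156, 193 and 153 in OE kidneys, against 3.34, 2.19 and 4.26 in control kidneys. All 3 were higher in each OE kidney than in any control, with OE replicate 2 the highest. Log2 fold changes were 4.70 (SE 0.32, adjusted p = 5.95e-08), 6.0 (SE 0.63, adjusted p = 4.03e-06) and 5.32 (SE 0.69, adjusted p = 2.85e-05). *Rsad2*, the antiviral enzyme viperin, was already abundant in controls and had 12676, 24908 and 9521 in OE kidneys, against 3835, 2084 and 2718 in control kidneys. The 33 calls remained without OE replicate 1. Upstream of these, 11 of 13 measured genes of a list of interferons, their receptors and sensors were higher, with a list median of 1.15. They ranged from *Ifnar1* at 0.36 to the cytosolic DNA sensor adaptor *Tmem173* at 1.74. The interferon genes *Ifna2*, *Ifna4*, *Ifnb1*, *Ifng*, *Ifnl2* and *Ifnl3* fell below the filter and are not in this count. *Ifnb1* had 8 reads over the OE libraries and 0 over the controls, *Ifng* 10 and 3, *Ifnl3* 5 and 0, and *Ifnl2* 1 and 0. *Ifna2* and *Ifna4* had no reads in either group.

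Interferon gamma targets and antigen presentation moved in the same direction. All 18 listed guanylate-binding proteins and immunity-related GTPases were higher, with a median of 2.45. *Gbp6* (4.42), *Gbp8* (3.83), *Gbp10* (3.79) and *Tgtp1* (3.59) had the largest changes. Of 20 MHC class I presentation genes 16 were higher. *Nlrc5* (2.21), the transactivator of these genes, the immunoproteasome subunit *Psmb8* (1.96) and the peptide transporter *Tap1* (1.87) were among them. *B2m*, the shared light chain, had 19314, 22119.6 and 15403 normalized reads in OE kidneys, against 12456, 7418 and 9614 in control kidneys. Of 10 genes of MHC class II presentation 6 were higher, with *Ctss* at 3.08 and *Ciita* at 1.81, but only 3 without OE replicate 2 or without OE replicate 3. Macrophage marker genes, which also carry these programmes, were higher in the same kidneys (21 of 23), and their part in these values was not tested.

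Most measured chemokine genes were higher. *Cxcl10*, the CXCR3 ligand induced by interferons, had 5834, 7268 and 3255 normalized reads in OE kidneys, against 35.7, 43.7 and 26.6 in control kidneys. *Ccl2*, which draws monocytes, had 844, 1083 and 868 in OE kidneys, against 43.5, 17.5 and 11.7 in control kidneys. *Cxcl5*, a neutrophil attractant, had 477, 965 and 421 in OE kidneys, against 1.11, 6.56 and 2.13 in control kidneys. Every OE kidney was at least an order of magnitude above every control. Log2 fold changes were 7.18 (SE 0.27, adjusted p = 6.75e-11), 5.41 (SE 0.56, adjusted p = 3.66e-06) and 7.30 (SE 0.74, adjusted p = 2.99e-06). Of 14 measured CXC chemokines 8 were higher and 1 lower, the platelet chemokine *Ppbp* at -1.66. Of 17 measured CC chemokines 11 were higher, among them *Ccl5* (4.28), and *Ccl25* was lower at -0.66. The lower calls of *Ppbp* and *Ccl25* were each lost without control replicate 1 and without OE replicate 3, among others (adjusted p up to 0.128 and 0.0816). Receptors followed for 7 of 13, with *Cxcr2* of neutrophils at 3.07 and *Ccr1* at 2.83.

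The promoters of the chemokine genes *Cxcl10* and *Cxcl1* and of *Ifit1* and *Chac1* are shown, 250 bases before to 50 after the RefSeq start. They place letters that match short motifs of transcription factor families. A match describes letters only, and binding was not tested. Capitals mark matches, on either strand, to GAAANNGAA (IRF core), GGGANNTTC (NF-kB site) or TGATGCAA (CEBP-ATF composite), and overlapping matches are merged:
*Cxcl10*, chr5:92348840-92349139, minus strand: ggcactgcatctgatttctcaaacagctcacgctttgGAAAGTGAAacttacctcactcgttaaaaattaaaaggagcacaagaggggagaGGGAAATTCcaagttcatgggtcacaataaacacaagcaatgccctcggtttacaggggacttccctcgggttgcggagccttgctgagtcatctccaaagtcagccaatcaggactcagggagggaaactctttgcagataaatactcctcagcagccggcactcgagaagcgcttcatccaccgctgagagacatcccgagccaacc
*Cxcl1*, chr5:90890995-90891294, plus strand: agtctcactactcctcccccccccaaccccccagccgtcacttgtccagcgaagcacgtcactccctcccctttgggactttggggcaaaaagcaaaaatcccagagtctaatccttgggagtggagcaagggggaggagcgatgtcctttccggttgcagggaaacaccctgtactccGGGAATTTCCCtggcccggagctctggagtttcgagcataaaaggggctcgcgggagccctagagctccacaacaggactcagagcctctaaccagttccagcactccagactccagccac
*Ifit1*, chr19:34640639-34640938, plus strand: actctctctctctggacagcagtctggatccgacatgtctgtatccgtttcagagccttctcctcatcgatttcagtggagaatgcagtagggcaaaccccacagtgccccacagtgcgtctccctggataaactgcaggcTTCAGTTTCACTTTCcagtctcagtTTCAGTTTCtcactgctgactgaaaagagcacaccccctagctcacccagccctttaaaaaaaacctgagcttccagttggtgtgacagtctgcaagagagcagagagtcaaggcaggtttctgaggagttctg
*Chac1*, chr2:119350992-119351291, plus strand: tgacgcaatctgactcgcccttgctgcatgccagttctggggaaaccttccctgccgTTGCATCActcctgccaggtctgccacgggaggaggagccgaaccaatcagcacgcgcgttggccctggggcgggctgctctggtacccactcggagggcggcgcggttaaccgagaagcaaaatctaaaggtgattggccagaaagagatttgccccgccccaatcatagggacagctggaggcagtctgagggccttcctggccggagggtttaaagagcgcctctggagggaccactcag

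Counting from the start site, *Cxcl10* had an IRF core match at -213 and an NF-kB match at -159. *Cxcl1* had overlapping NF-kB matches at -71 and -69. *Ifit1* had IRF core matches at -109, -103 and -84, and *Chac1* had a CEBP-ATF match at -193. Among the 27025 genes with a promoter in the table, 8.58% held the IRF core, 3.90% the NF-kB site and 0.929% the CEBP-ATF letters in a window of the same length. The promoters are of the assembly GRCm38.p6. Only 70.2% of the tested genes had a promoter in the table, so a comparison of motif shares between higher and lower DEGs is void and not given.

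NF-kB genes were higher almost throughout: of 26 listed subunits, activators and inhibitors 25 were higher and 1 lower, with a median of 1.49. Several inhibitors, which NF-kB itself induces, had large changes. *Nfkbid*, a nuclear inhibitor of the IκB family, had 469.5, 612 and 589 normalized reads in OE kidneys, against 10.03, 19.7 and 24.5 in control kidneys. *Tnip3* (3.57), *Bcl3* (2.80), *Tnfaip3* (2.59), which encodes A20, and *Nfkbia* (1.63) were also higher. All 5 subunits were higher, with *Nfkb2* at 2.25, *Relb* at 1.97, *Rel* at 1.59, *Rela* at 0.78 and *Nfkb1* at 0.44, the first 3 named after their values were seen. *Chuk*, which encodes the kinase IKKα, was the 1 lower member, with 3012, 2710.5 and 2694 in OE kidneys, against 5167, 4513 and 5717 in control kidneys and a log2 fold change of -0.87 (SE 0.17, adjusted p = 8.32e-04).

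Cytokines upstream and downstream of NF-kB were higher as well. *Tnf* had 203, 148 and 202 normalized reads in OE kidneys, against 6.69, 4.37 and 4.26 in control kidneys. *Lif*, a cytokine of the IL-6 family, had 239, 185 and 207 in OE kidneys, against 5.57, 19.7 and 9.59 in control kidneys. The groups were far apart for both, with log2 fold changes of 4.93 (SE 0.48, adjusted p = 2.10e-06) and 4.22 (SE 0.42, adjusted p = 2.33e-06). Of 26 measured TNF ligands and receptors 18 were higher, with *Tnfrsf9* (4.6), the p53-induced receptor *Eda2r* (4.15), *Tnfsf15* (3.95) and the TWEAK receptor *Tnfrsf12a* (3.27) the largest after *Tnf*, and *Tnfrsf21* (-0.95) was lower. Of 16 measured interleukin 1 family genes 11 were higher, including the agonist *Il1b* (3.23) and the antagonist *Il1rn* (4.26). Of 16 genes of IL-6 family signalling 9 were higher, including *Il11* (2.47), *Osmr* (2.03), *Stat3* (1.70) and its feedback inhibitor *Socs3* (2.61). *Il6* itself fell below the filter and was not tested, with 71 reads over the OE libraries and 0 over the controls. Innate sensors and death effectors were part of the change, with 14 of 21 Toll-like receptor genes higher (*Tlr8* at 3.11, *Tlr2* at 2.42) and *Tlr12* lower (-1.45). Of 22 cell death and inflammasome genes 13 were higher, with the nucleic acid sensor *Zbp1* at 3.48, *Casp4* at 2.72 and the necroptosis effector *Mlkl* at 2.22, and *Nlrp6* (-1.69) and *Dfna5* (-0.80) were lower.

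**Figure D3:**
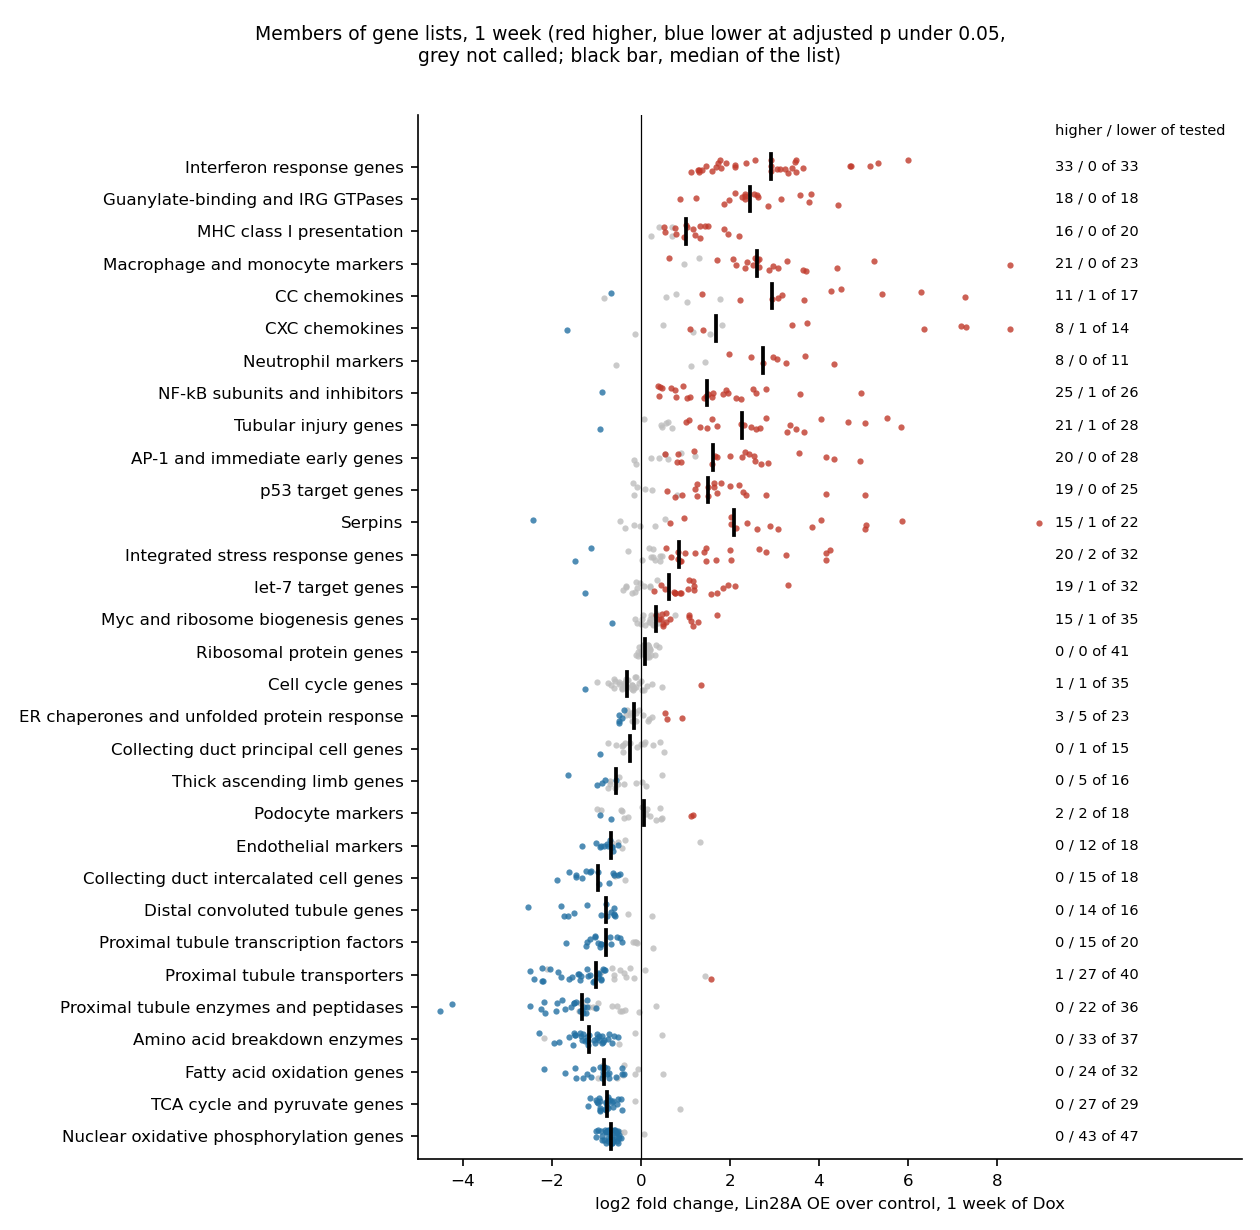
Log2 fold change at 1 week (horizontal axis) of each tested member of 31 gene lists (rows), with red points higher and blue points lower in OE at an adjusted p under 0.05, grey points not called, and a black bar at the list's median. Counts at the right are members higher and lower of those tested. The interferon row lies wholly to the right of 0 (33 of 33 higher) and the oxidative phosphorylation row almost wholly to the left (43 of 47 lower).

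Genes of injured tubules were higher, 21 of 28, with a median of 2.28. *Krt20*, a keratin of injured tubular epithelium, had 685, 1632 and 1794 normalized reads in OE kidneys, against 30.1, 28.4 and 10.7 in control kidneys. *Havcr1*, which encodes the injury marker KIM1, had 2244, 4608 and 4569 in OE kidneys, against 126, 141 and 25.6 in control kidneys. *Lcn2*, the siderophore-binding lipocalin NGAL, had 3377, 3038 and 5012 in OE kidneys, against 271, 133 and 88.4 in control kidneys. Control replicate 3 was the lowest library for all 3, and its *Havcr1* level was well under those of the other controls. Log2 fold changes were 5.84 (SE 0.41, adjusted p = 8.82e-08), 5.53 (SE 1.0, adjusted p = 5.06e-04) and 4.65 (SE 0.47, adjusted p = 2.89e-06). *Itgb6* (-0.92) was lower, and its call was lost without OE replicate 3 or control replicate 1 (adjusted p up to 0.0808). Keratins of simple epithelium rose alongside, *Krt18* by 1.72 and *Krt8* by 1.02, among 5 of 13 measured keratins. *Krt17* had 58 reads over the OE libraries and 0 over the controls.

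Genes switched on by stress kinases within minutes of a stimulus in cultured cells were higher at 1 week. Of 28 measured AP-1 and immediate early genes 20 were higher, with a median of 1.63. *Atf3*, an AP-1 partner of the stress response, had 929.9, 998 and 1301 normalized reads in OE kidneys, against 74.7, 35 and 75.6 in control kidneys. *Egr2*, a zinc finger factor, had 175, 133 and 191 in OE kidneys, against 0, 14.2 and 9.59 in control kidneys. Both groups were apart, with log2 fold changes of 4.17 (SE 0.37, adjusted p = 8.28e-07) and 4.93 (SE 0.77, adjusted p = 1.51e-04). *Fosb* (4.34), *Fosl1* (3.54) and *Fos* (2.86) had larger changes than *Jun* (0.91).

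Target genes of p53 rose together, 19 of 25 measured, with a median of 1.51. *Cdkn1a*, the cell cycle inhibitor p21, had 7499.7, 10406 and 9441 normalized reads in OE kidneys, against 388, 273 and 197 in control kidneys. *Eda2r* had 423, 539 and 306 in OE kidneys, against 25.6, 15.3 and 27.7 in control kidneys. *Mdm2* (1.51), the ligase that degrades p53, *Pmaip1* (2.36), the BH3-only protein NOXA, *Trp53inp1* (1.72) and *Gdf15* (2.80) were higher too. For *Cdkn1a* and *Eda2r* the log2 fold changes were 5.03 (SE 0.43, adjusted p = 6.49e-07) and 4.15 (SE 0.31, adjusted p = 1.71e-07).

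Genes of the integrated stress response were higher. Those of the endoplasmic reticulum (ER) response were called about as often as all genes, of which 18.7% were higher and 15.6% lower. Kinases that phosphorylate eIF2α favour translation of ATF4, which then induces amino acid transport and synthesis genes. Of 32 measured genes of this response 20 were higher and 2 lower, with a median of 0.86. *Chac1*, which degrades glutathione and is an ATF4 target, had 456, 661 and 648 normalized reads in OE kidneys, against 75.8, 27.3 and 14.9 in control kidneys. *Slc7a11*, the cystine transporter, had 379, 637 and 465 in OE kidneys, against 20.1, 26.2 and 27.7 in control kidneys. The log2 fold changes were 4.16 (SE 0.50, adjusted p = 1.41e-05) and 4.25 (SE 0.43, adjusted p = 2.62e-06), and *Atf4* itself measured 0.99, *Trib3* 3.27, *Ddit3* 2.02 and *Asns* 1.68, all called higher. *Shmt2*, the mitochondrial serine hydroxymethyltransferase, was lower, with 1739, 1814 and 1405 in OE kidneys, against 4199, 4602 and 4890.0 in control kidneys, and so was *Vldlr* (-1.11). Of 23 ER chaperones and unfolded protein response genes 3 were higher, *Dnajb9* (0.92), *Eif2ak3* (0.60) and *Xbp1* (0.54), and 5 were lower (3 with quantile normalization), and the chaperone *Hspa5* measured -0.10 with no call. *Eif2ak3* lost its call without OE replicate 2 and *Xbp1* without control replicate 2 (adjusted p = 0.0554 and 0.0504). Of 30 measured Nrf2 and oxidative stress genes 6 were higher, *Hmox1* (2.63) and *Srxn1* (1.45) among them, and 11 were lower, 7 without OE replicate 3, with the classic target *Nqo1* at -0.31 and no call. *Sqstm1*, the autophagy adaptor p62, was among the 10 largest gains in reads, with 21403, 32024 and 26136 in OE kidneys, against 9048, 8396 and 9152 in control kidneys.

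Protease inhibitors and matrix regulators were changed in both directions. *Cyr61*, a matricellular protein, had 7551, 8373 and 12669 normalized reads in OE kidneys, against 595, 537 and 932 in control kidneys, with a log2 fold change of 3.80 (SE 0.35, adjusted p = 1.28e-06). Of 22 measured serpins 15 were higher and *Serpinf2* (-2.42) was lower. *Serpinb9e* and *Serpinb9g* had 112 and 105 reads over the OE libraries and 0 over the controls. Of 19 matrix metalloproteinases and inhibitors 8 were higher, with *Adam8* (3.94) and *Timp1* (3.68), and *Timp3* (-1.17) and *Mmp15* (-1.06) were lower. Of 26 TGF-beta, activin and BMP genes 10 were higher, 6 without OE replicate 3 or without control replicate 1, *Bmp7* (-0.91), a growth factor of the tubule, was lower, and *Tgfb1* measured 0.39 with no call. The acute-phase fibrinogen chains *Fgb* and *Fgg* rose by 3.48 and 3.18, and the complement genes *C3* and *Cfi* by 2.35 and 2.68.

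Marker genes of immune cells are given by lineage. In bulk tissue, more cells of a type and more RNA per cell cannot be told apart. Macrophage and monocyte markers were higher in 21 of 23, with a median of 2.62 and a summed level of 25624 to 28378 normalized reads in OE kidneys against 3966 to 5632 in control kidneys. *Lyz2*, myeloid lysozyme, had 8611, 8131 and 11321 normalized reads in OE kidneys, against 911, 541 and 840.4 in control kidneys. *Adgre1*, the F4/80 antigen, had 738, 682 and 684 in OE kidneys, against 142, 94.0 and 134 in control kidneys. *Clec4d*, a lectin receptor of activated monocytes, had 82.1, 117 and 115 in OE kidneys, against 1.11, 2.19 and 2.13 in control kidneys. The groups were far apart for each, with log2 fold changes of 3.63 (SE 0.35, adjusted p = 1.93e-06), 2.52 (SE 0.35, adjusted p = 5.83e-05) and 5.24 (SE 0.67, adjusted p = 2.84e-05). Of 16 listed neutrophil markers 11 were measured, and 8 of these were higher. Sums were 725 to 1105 in OE kidneys against 153 to 181 in control kidneys. *S100a8* had 111, 189 and 173 in OE kidneys, against 15.6, 2.19 and 7.46 in control kidneys. The neutrophil genes *Ly6g*, *Elane*, *Ngp*, *Camp* and *Mpo* fell below the filter and are not among the 11. They had 1, 1, 3, 8 and 9 reads over the OE libraries, against 0, 0, 8, 3 and 0 over the controls. Markers near absent from controls passed the filter through other libraries. Of 14 measured T and NK cell markers 6 were higher, *Cd4* (2.78) among them, 2 without OE replicate 3 and 3 without OE replicate 2 or control replicate 1 or 2. *Cd3e* (1.34) and *Cd8a* (-0.49) had no call. Of 8 measured B and plasma cell markers 0 were called in either direction from limma, edgeR or DESeq2, with 0 higher and 1 lower at an unadjusted p under 0.05, and with sums of 421 to 702 in OE kidneys against 356 to 566 in control kidneys.

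**Figure D4:**
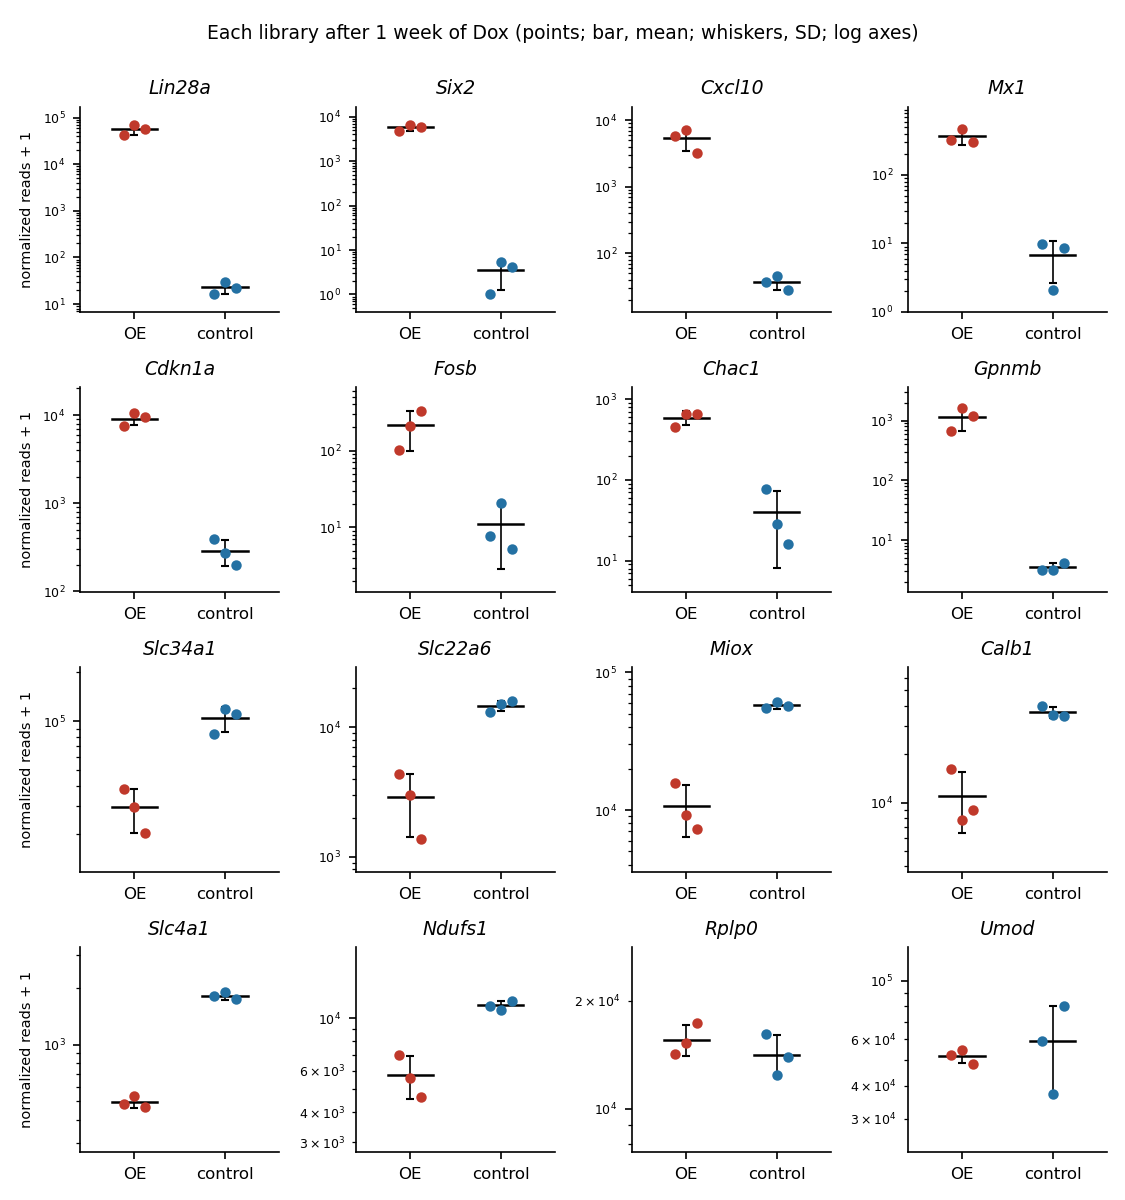
Normalized reads plus 1 (vertical axes, log scale) of 16 genes in the 3 OE libraries (red) and the 3 control libraries (blue) at 1 week, with a bar at the mean and whiskers of 1 SD. In the upper 8 panels every OE library lies above every control, from *Slc34a1* to *Ndufs1* every OE library lies below every control, and *Rplp0* and *Umod* overlap.

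Transport genes of the proximal tubule were lower. This segment reclaims phosphate, glucose, amino acids and filtered protein and secretes organic anions. Of 40 transporters 27 were lower and 1 higher, with a median of -1.0. *Slc34a1*, the sodium-phosphate cotransporter NaPi-IIa, had 38069, 29570.1 and 20360.4 normalized reads in OE kidneys, against 83751, 118907 and 111208 in control kidneys. *Slc22a6*, the organic anion transporter OAT1, had 4344, 2982 and 1375 in OE kidneys, against 13110, 15008 and 15842 in control kidneys. *Lrp2*, the endocytic receptor megalin, had 28491, 17288 and 13072 in OE kidneys, against 54298, 77781 and 62852 in control kidneys. OE replicate 3 was the lowest library for each, and every OE kidney was below every control. Log2 fold changes were -1.86 (SE 0.42, adjusted p = 0.00258), -2.48 (SE 0.40, adjusted p = 1.88e-04) and -1.79 (SE 0.33, adjusted p = 6.15e-04). *Slc22a12* (the urate transporter URAT1, -2.39), *Slc22a8* (-2.23), *Slc13a3* (-2.21) and the glucose transporter *Slc5a2* (-1.61) were lower as well. *Slc13a1*, a sodium-sulfate cotransporter, was the exception, with 7985, 16154 and 10770.4 in OE kidneys, against 2973, 3261 and 5317 in control kidneys and a log2 fold change of 1.58 (SE 0.30, adjusted p = 6.85e-04).

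Enzymes of the same segment followed. Of 36 enzymes and peptidases 22 were lower, with a median of -1.32, and beside *Akr1c21* and *Dpys* they included *Miox*, the first enzyme of inositol breakdown, with 15750.4, 9202 and 7295 normalized reads in OE kidneys, against 55168, 60916 and 56657 in control kidneys. The angiotensin-converting enzyme *Ace* measured -0.96 with no call. Of 20 transcription factors of the segment 15 were lower, with smaller changes (median -0.79), and 9 were lower without control replicate 3. *Nr1h4* (-1.2), the bile acid receptor FXR, was among them. *Hnf4a*, which maintains proximal identity, had 8319, 9641 and 6972 in OE kidneys, against 12726, 15549 and 19330 in control kidneys, and its call (-0.92 (SE 0.29, adjusted p = 0.0206)) was lost without OE replicate 3 or control replicate 3 and with quantile normalization (adjusted p up to 0.116). Of 37 measured drug-metabolizing enzymes 10 were lower, against 15.6% of all genes, with *Ephx2* at -1.98 and *Cyp2j11* at -1.82. Without control replicate 3 the count was 6, and 2029 of all 16984 genes were lower. When the 1-week libraries were fitted by themselves it was 17, and 2735 of all genes were lower.

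The distal segments are given one by one. In the thick ascending limb 5 of 16 genes were lower, against 15.6% of all genes. The count was 1 to 3 when any 1 of OE replicates 1, 2 and 3 or control replicates 1 and 3 was left out. *Umod*, uromodulin of that limb, had 52288, 54761 and 48498 normalized reads in OE kidneys, against 59276, 37218 and 80304 in control kidneys, with groups that overlapped (-0.12 (SE 0.29, adjusted p = 0.788)). In the distal convoluted tubule 14 of 16 were lower (median -0.78), but 7 or 8 without OE replicate 2, OE replicate 3 or control replicate 3 and 9 with quantile normalization. *Calb1*, the calcium-buffering calbindin, had 16284, 7805 and 9006 in OE kidneys, against 39814, 34979 and 34720.1 in control kidneys and a log2 fold change of -1.80 (SE 0.26, adjusted p = 8.75e-05). *Kl*, which encodes the FGF23 coreceptor klotho, measured -1.72. Principal cells of the collecting duct, which lie outside the Six2 lineage, had 1 of 15 lower, *Hsd11b2* (-0.91), or 6 when the 1-week libraries were fitted by themselves, and *Aqp2*, their vasopressin-regulated water channel, had 21612, 21823 and 22738 in OE kidneys, against 32879.7, 21872 and 12324 in control kidneys. The *Aqp2* groups overlapped, with OE kidneys inside the range of the controls. Intercalated cells, the acid-base cells of the same ducts, had 15 of 18 genes lower, with a median of -0.95. *Rhbg*, an ammonia transporter, had 122, 75.3 and 60.1 in OE kidneys, against 312, 233 and 224 in control kidneys, and *Slc4a1*, the anion exchanger that red blood cells also carry, measured -1.88.

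Podocyte genes were called no more often at 1 week than all genes, of which 18.7% were higher and 15.6% lower. Of 18 podocyte markers 2 were higher, *Cdkn1c* (1.18) and *Cd2ap* (1.13), and the collagen genes *Col4a4* (-0.91) and *Col4a5* (-0.68) were lower. Without OE replicate 2 or control replicate 2 only 1 was lower, and *Col4a5* also lost its call without OE replicate 3 or control replicate 1 (adjusted p up to 0.0649). The slit diaphragm gene *Nphs1* (-0.97) and the transcription factor *Wt1* (0.43) had no call. Renin (*Ren1*), made by juxtaglomerular cells, had 1464, 706 and 906 normalized reads in OE kidneys, against 2874, 3127 and 3668 in control kidneys, with a log2 fold change of -1.71 (SE 0.35, adjusted p = 0.00138).

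Vessel and blood markers were lower beside the tubule genes. Of 18 endothelial markers 12 were lower, with a median of -0.66 and sums of 25716 to 27210 normalized reads in OE kidneys against 40456 to 44584 in control kidneys. *Kdr*, the VEGF receptor 2, had 1712, 1411 and 1396 normalized reads in OE kidneys, against 3325, 3628 and 4264 in control kidneys, and *Pecam1* (-0.65), *Cdh5* (-0.88) and *Icam2* (-1.0) were lower too, while the inducible adhesion molecules *Icam1* (2.72) and *Vcam1* (2.48) were higher. Of 8 red blood cell markers 6 were lower, with sums of 9778 to 23769 in OE kidneys against 62073 to 86532 in control kidneys. *Alas2*, the erythroid enzyme of heme synthesis, had 754, 479.7 and 299.6 in OE kidneys, against 2084, 2236 and 2498 in control kidneys. *Hbb-bs*, a beta-globin gene, had 13315, 10499.5 and 5639 in OE kidneys, against 50536, 39269 and 33400.4 in control kidneys. The part of blood content in the other values was not tested. Of 22 fibroblast and pericyte markers 3 were higher and 3 lower, and 0 higher without OE replicate 3 or control replicate 2. The brown fat gene *Ucp1* (-4.52) was the 1 lower gene of 8 adipocyte markers and lost its call without any 1 library except OE replicate 1. Of 4 measured adrenal markers *Cyp11a1* (3.22) was higher, with 101 reads over the OE libraries and 8 over the controls. Of 7 urothelial markers *Krt14* (1.25) was the 1 higher, a call lost without 4 of the 6 libraries in turn (adjusted p up to 0.180).

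Mitochondrial energy genes were lower. Of 47 nuclear oxidative phosphorylation genes 43 were lower, with a median of -0.67 and a lowest value of -1.0. *Ndufs1*, a core subunit of complex I, had 6991, 5579 and 4635 normalized reads in OE kidneys, against 11262, 10819 and 11856 in control kidneys. *Sdhb*, the iron-sulfur subunit of complex II, had 7583, 7061 and 6347 in OE kidneys, against 15342, 12174 and 14536 in control kidneys. The groups were apart for both, with log2 fold changes of -1.0 (SE 0.16, adjusted p = 1.85e-04) and -1.0 (SE 0.12, adjusted p = 1.39e-05). Of 29 TCA cycle and pyruvate genes 27 were lower, with *Aco1* at -1.17 and *Me1* at -1.13. With quantile normalization the lower counts were 25 for oxidative phosphorylation and 17 for the TCA cycle, and 43 and 26 without OE replicate 1. Reads of the mitochondrial genome made up 7.18, 5.65 and 5.56% of all reads in OE kidneys and 9.44, 8.91 and 9.41% in control kidneys (p = 0.1 by a two-sided exact permutation test, which cannot go lower with 3 against 3). This share covers only part of the mitochondrial genome. *mt-Co2*, *mt-Nd3* and *mt-Nd4l* had no reads in either group, and *mt-Atp6*, *mt-Atp8* and *mt-Co3* had at most 3 over a group. Why these had almost no reads was not tested. Of 15 listed mitochondrial transcripts 9 were measured and 4 were lower, *mt-Nd2* (-1.04) and *mt-Nd1* (-0.88) among them. Leaving out 1 library gave 0 to 5 lower, quantile normalization 0, the replicate block 1, and edgeR and DESeq2 7 each. The *mt-Nd1* call was lost without any 1 library except OE replicate 1, with quantile normalization and with the block (adjusted p up to 0.450). That of *mt-Nd2* was lost without OE replicate 2 or 3 and with quantile normalization (adjusted p up to 0.375).

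Genes of fat and amino acid breakdown were lower too. Of 32 fatty acid oxidation genes 24 were lower (median -0.83), and *Acadm*, the medium-chain acyl-CoA dehydrogenase, had 8672, 7689.9 and 6855 normalized reads in OE kidneys, against 18717, 19551 and 25815 in control kidneys. *Acsm2* (-2.17) and *Cat* (-1.48), the peroxisomal catalase, were lower, and *Cpt1a*, which gates entry into mitochondria, measured -0.41 with no call. Of 37 measured amino acid breakdown enzymes 33 were lower (median -1.15). *Dmgdh*, a choline-pathway dehydrogenase, had 529, 587 and 379 in OE kidneys, against 2068, 2332 and 2787 in control kidneys. *Aass* (-1.95) of lysine breakdown, *Sardh* (-1.61) and *Hgd* (-1.48) were lower as well. In glucose metabolism genes were called in both directions, with the gluconeogenic *Fbp1* (-1.76) and *G6pc* (-1.71) and the fructose enzyme *Khk* (-1.67) lower and *Hk3* (2.75) and *Eno2* (1.22) higher. Of the 27 listed genes 11 were lower, but 7 with quantile normalization. Cholesterol synthesis had 11 of 21 genes lower, with *Mvd* at -1.49 and *Cyp51* at -1.29.

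Few cell cycle genes were called. Of 35 cell cycle genes 1 was higher, *Ccnf* (1.36), and 1 lower, *Ccnd1*, and *Mki67*, the proliferation antigen, had 1849.6, 808 and 847 normalized reads in OE kidneys, against 1325, 1129 and 1995 in control kidneys. The groups overlapped for *Mki67* (-0.41 (SE 0.56, adjusted p = 0.61)). The *Ccnf* call was lost without control replicate 2 (adjusted p = 0.0609), and 3 genes were lower without OE replicate 1. Of 41 ribosomal protein genes 0 were called from limma, edgeR or DESeq2, with 0 higher and 0 lower at an unadjusted p under 0.05, and with a median of 0.09 and a range of -0.11 to 0.40, but with quantile normalization 7 were higher. *Myc*, a *let-7* target and driver of ribosome production, had 649.6, 608 and 713 in OE kidneys, against 194, 244 and 167 in control kidneys and a log2 fold change of 1.71 (SE 0.36, adjusted p = 0.00171), and 15 of 35 Myc and ribosome biogenesis genes were higher, 8 without OE replicate 3 or without control replicate 2. Of 36 genes of IGF, PI3K, AKT and mTOR signalling 8 were higher and 3 lower, against 18.7% and 15.6% of all genes. Those higher included *Pik3r5* (2.39), *Pik3cg* (1.73) and *Pik3cd* (1.58), subunits found mostly in leukocytes, and *Eif4ebp1* (1.36), the translation repressor. *Mtor* (-0.83) was among 3 lower, or 8 lower when the 1-week libraries were fitted by themselves. *Egf*, made by the distal tubule, measured -1.63 and lost its call without 4 of the 6 libraries in turn and with quantile normalization (adjusted p up to 0.122), while the ligand *Hbegf* was higher at 2.28.

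Genes of the circadian clock were called in both directions. The activators *Arntl* (2.70) and *Npas2* (2.00) and the genes *Nfil3* (1.37) and *Cry1* (1.12) were higher. Of 19 clock genes 7 were lower, including the output factors *Dbp*, *Tef* (-1.14) and *Hlf* (-1.24) and the repressors *Ciart* (-1.73) and *Nr1d1* (-1.27). *Arntl* had 697, 917 and 755 normalized reads in OE kidneys, against 283, 132 and 45.8 in control kidneys. *Dbp* had 794, 691 and 731 in OE kidneys, against 1748, 2267 and 3278 in control kidneys. The controls spread widely for *Arntl*, from 45.8 to 283, and were all below the OE kidneys (2.70 (SE 0.59, adjusted p = 0.0021)). Without control replicate 1 only 2 clock genes were higher, *Nfil3* having lost its call (adjusted p = 0.0578). *Cry1* lost its call without OE replicate 3 or control replicate 1 or 2 (adjusted p up to 0.0579), and *Nr1d1* without OE replicate 3 (adjusted p = 0.0529). The labels give no hour of harvest, and a difference in hour and one in genotype cannot be told apart.

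The 1-week effect was set against the effects at 2 and 5 weeks, each with its own controls, so that the compared effects share no library. The groups also differed in *Xist*. At 2 weeks it was above 100 normalized reads in OE replicates 2 and 3 and control replicate 1. At 5 weeks it was above 100 in OE replicate 2 and control replicate 3. The part of this in the differences between weeks was not tested. Of the 1394 higher DEGs 1289 were called higher at 2 weeks too and 593 at 5 weeks. Of the 852 lower DEGs 769 were lower at 2 weeks and 328 at 5 weeks. The shares of all genes called at those weeks were not counted, so these counts have no background beside them. The size of the effect differed between 1 and 2 weeks for 1540 genes (9.07% of those tested) and between 1 and 5 weeks for 1188 (6.99%), at an adjusted p under 0.05 for the difference from limma. The first count was 767 to 1023 without OE replicate 1 or 2 or control replicate 2 of 1 week, or control replicate 2 or 3 of 2 weeks. The second was 673 to 781 without OE replicate 2 or 3 or control replicate 2 of 1 week, or control replicate 2 or 3 of 5 weeks. Among higher DEGs 394 had a larger effect at 1 than at 5 weeks and 149 a smaller one than at 2 weeks. Among lower DEGs the fall was smaller than at 2 weeks for 317 and larger than at 5 weeks for 97. The DEGs were picked by their 1-week effect, which tilts these counts towards larger effects at 1 week.

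The course is given list by list. Over all genes tested the effect differed for 9.07% between 1 and 2 weeks and for 6.99% between 1 and 5 weeks. Of the 33 interferon genes 15 had a smaller effect at 1 than at 2 weeks and 31 a larger one than at 5 weeks, and their median log2 fold change was 2.91, 4.14 and 0.35 at 1, 2 and 5 weeks. Of the 23 macrophage markers 2 had a smaller effect at 1 than at 2 weeks, with medians of 2.62, 3.40 and 2.33. That count is near the share over all genes and shows nothing particular to these markers. Of 40 proximal tubule transporters 26 had fallen less at 1 than at 2 weeks, with medians of -1.0, -2.79 and -0.70, and of 47 oxidative phosphorylation genes 37 had (-0.67, -1.57 and -0.63). Of 18 intercalated cell genes 8 had fallen less than at 2 weeks and 7 more than at 5 weeks. For *let-7* targets 11 of 32 had a larger effect at 1 than at 5 weeks, with *Igf2bp2* at 3.30, 3.30 and 1.61. *Lin28a* itself had log2 fold changes of 11.26, 12.03 and 4.48.

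**Figure D5:**
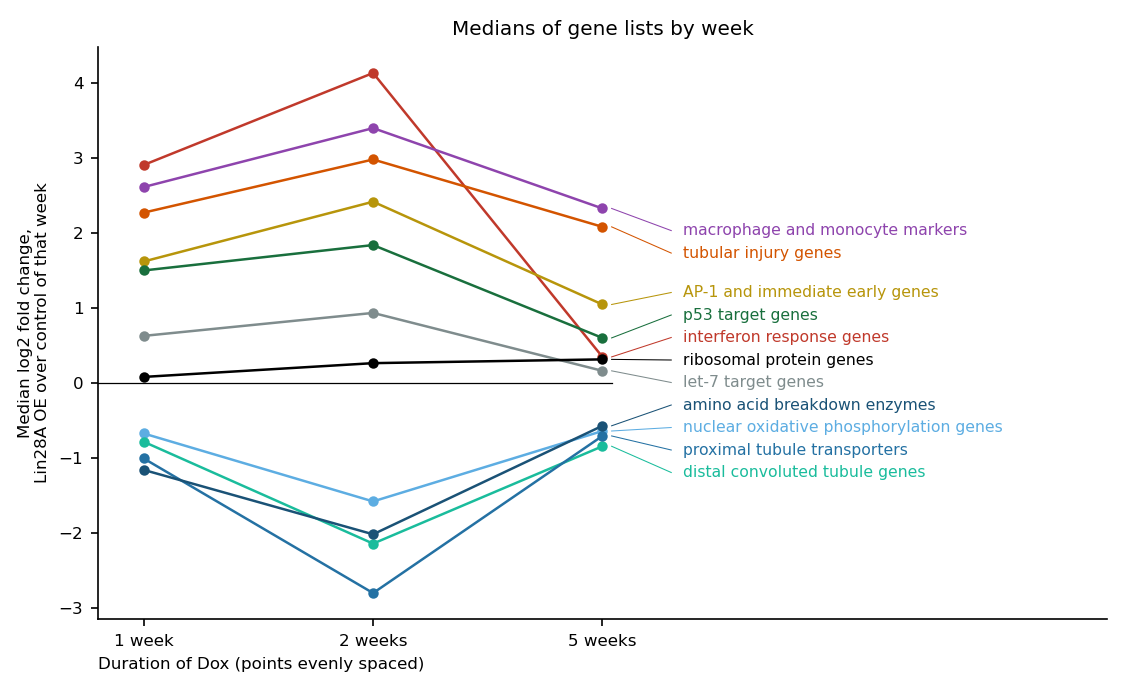
Median log2 fold change of OE over the controls of the same week (vertical axis) for 11 gene lists at 1, 2 and 5 weeks of Dox (horizontal axis, evenly spaced), with 1 line a list. The interferon line has 2.91, 4.14 and 0.35, and the line of proximal tubule transporters has -1.0, -2.79 and -0.70.

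A few DEGs were largest at 1 week. Among higher DEGs 5 had a larger rise at 1 week than at both 2 and 5 weeks. *Fcrl1*, an Fc receptor-like protein, had 28.5, 52.5 and 45.5 normalized reads in OE kidneys, against 3.34, 1.09 and 2.13 in control kidneys. *Myl3*, a myosin light chain of heart and slow muscle, had 49.0, 49.6 and 39.5 in OE kidneys, against 6.69, 12 and 6.39 in control kidneys. *Slc24a5*, a potassium-dependent sodium-calcium exchanger, had 145, 168 and 207 in OE kidneys, against 12.3, 43.7 and 27.7 in control kidneys. Their log2 fold changes at 1, 2 and 5 weeks were 3.78, 1.84 and 0.77 for *Fcrl1*, 2.37, -0.59 and -1.73 for *Myl3*, and 2.74, 0.25 and -0.42 for *Slc24a5*. The others were the zinc finger gene *Zfp667* and *Ptgs2*, which encodes cyclooxygenase 2. *Ptgs2* had 308, 221 and 322 in OE kidneys, against 159, 189 and 63.9 in control kidneys, with log2 fold changes of 1.16, -1.30 and -1.28, and its call at 1 week was lost without OE replicate 1 or 3 or control replicate 3 and with edgeR (adjusted p up to 0.211). Among lower DEGs 3 fell further at 1 week than at both later weeks, *Fam163a* (-2.42, 0.58 and 0.12), *Zfyve28* (-1.0, 0.83 and 1.01) and the predicted gene *Gm38043* (-1.58, 1.11 and 1.62), named after its values were seen. *Gm38043* lost its call without OE replicate 1 or control replicate 1 or 2 and when the 1-week libraries were fitted by themselves (adjusted p up to 0.0940). *Zfyve28* lost its call without each of the 6 libraries in turn and with DESeq2 (adjusted p up to 0.149).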

How the data were processed

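Poly(A) RNA of kidneys was sequenced with 75-base single reads. Per the labels and methods, the authors used STAR to align reads to mm10, HTSeq to count them over genes and DESeq2 to scale the libraries, with versions not given in the sources used here. The deposited signal values are size-factor-scaled read counts, and dividing by the value of 1 read gave whole reads for 100% of values within a tolerance of 0.001. Strand of counting is not given, so a gene and an overlapping antisense gene cannot be told apart. The members and gene lists were chosen with earlier results of these data known.

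Genes with a mean above 10 over the 18 libraries entered limma 3.58.1 (R 4.3.3) as log2(value + 1). A single fit covered the 18 libraries in 6 groups with the trend option, and p-values were adjusted over 16984 genes by Benjamini-Hochberg. The contrasts were OE against control at 1 week and that effect minus the effect at 2 or 5 weeks. Since the values are normalized, edgeR 4.0.16 and DESeq2 1.42.0 on the recovered reads were alternatives, as were pseudocounts of 0.5 and 5, no filter, quantile normalization, a mean above 50, rescaling to the upper quartile, the 1-week libraries alone, robust moderation, the replicate number as a block, and leaving out each library. Code was tested on simulated data with 50 changed genes at each size. At a log2 fold change of 1, 54% were called in the right direction, at 2 78% and at 3 96%. A gene without a call can therefore still have changed. Single values per library had exact permutation tests.

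Gene lists numbered 65 with 1404 genes, and are described by counts and medians. Named genes were *Lin28a*, *Six2* and genes the study names for RNA, the 15 largest rises and falls without overlap, the 10 largest gains and losses in reads, the first 3 genes of each list, its 4 largest called changes and called members against its direction, and the DEGs largest at 1 week against both later weeks. A few of these genes are not reported here. Sites of *let-7* were matched in the longest annotated 3′ UTR of GENCODE release 21, and microRNAs and promoters came from RefSeq, GRCm38.p6. Figures used matplotlib 3.10.9 in Python 3.11.15. Annotation matched 99.5% of identifiers.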

Additional observations from a re-analysis of the deposited data

Results flagged for a closer look

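The size of the OE effect differed between 1 and 2 weeks for 1540 genes and between 1 and 5 weeks for 1188, by limma's test of the difference itself. Among the DEGs, which were picked by their 1-week effect, 7 named genes had a larger effect at 1 week than at both later weeks by the same test. For *Fcrl1* the 1-week log2 fold change exceeded that at 2 weeks by 1.94 (adjusted p = 0.0434) and that at 5 weeks by 3.01 (adjusted p = 0.00463). For *Myl3* the differences were 2.97 and 4.10, for *Slc24a5* 2.50 and 3.16, for *Ptgs2* 2.46 and 2.44, and for *Zfp667* 0.74 and 1.37. For *Fam163a* they were -2.99 and -2.53, and for *Zfyve28* -1.83 and -2.01. Adjusted p for these differences lay between 8.15e-04 and 0.0434. *Fcrl1* averaged 42.1 normalized reads in OE and 2.19 in control kidneys at 1 week and *Zfyve28* 6.32 and 13.4, so both rest on few reads. The causes were not tested.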

How the results depend on the processing

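The counts of DEGs stayed within 1.5 times under every alternative run, from 1012 to 1673 higher and from 632 to 1011 lower. DEGs were higher in 56.1% to 66.0% of cases, against 62.1%, and scaling moved the median of all genes by 0.05 or less on the log2 scale. Same-numbered OE and control libraries did not deviate together at 1 week (correlations of -0.05, 0.01 and 0.17), so the number was not taken as a pairing. With the replicate block 1387 genes were higher and 840 lower DEGs. The count of genes whose effect differed between 1 and 2 weeks was 767 to 1693 when 1 library was left out, and that between 1 and 5 weeks 673 to 1327, or 1844 with DESeq2. Of 242 genes called and named here, none reversed while called. Calls lost were 1 with edgeR, 1 with DESeq2, 6 with quantile normalization, 7 with the block and 7 to 19 when 1 library of 1 week was left out. Genes without a call changed sign: *Aqp2* (-0.012 with edgeR, -0.024 with DESeq2, -0.28 to 0.43 with 1 library left out), *Hspa5* (0.33 with quantile normalization, -0.28 to 0.14) and *Umod* (0.30 with quantile normalization, -0.41 to 0.14). Of 130 list counts 18 moved by over 1.5 times with quantile normalization and 10 to 18 when 1 library was left out. The shorter promoter window was not compared, since the comparison was void. The cause of these shifts was not tested. With 3 kidneys a group, low genes and small effects are the least certain.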

Other observations

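Hormone, adhesion and complement genes also changed at 1 week. Of 14 measured endocrine and renin system genes 6 were lower, with *Kl* at -1.72, *Ren1* at -1.71, *Mme*, which encodes the peptidase neprilysin, at -1.24, and the parathyroid hormone receptor *Pth1r* at -1.08, and angiotensinogen (*Agt*) was the 1 higher at 0.74. Of 17 adhesion molecules and selectins 10 were higher, *Cd44* (3.35), *Madcam1* (3.68) and *Itgam* (3.28) among them, and *Icam2* and *Pecam1* were lower. Of 25 measured complement genes 12 were higher, with *C1qa*, *C1qb* and *C1qc* of macrophages at 2.62, 2.57 and 2.60, and *C8g* was lower at -1.19.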
